A study of Mus musculus with 48 samples.

Results

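Acta2, Des, Pdgfra, Pdgfrb, Lrat, Reln, Dcn, Lum, Lox and Loxl1 are markers of hepatic stellate cells and of the myofibroblasts that arise from them in injured liver. They were taken by gene symbol from tables that count 29221 genes, and all 10 were found; the list was drawn up by function, with earlier results of these data known. Whole-liver RNA of 48 mice was sequenced. All mice carried a floxed Pparg gene, which encodes the nuclear receptor PPARγ, and all received an AAV8 vector with the TBG promoter after 16 weeks on diet. The TBG promoter drives expression in hepatocytes, so other liver cells were not its target. AAV8-TBG-Cre gave the mice labelled hepatocyte-specific Pparg knockout, and AAV8-TBG-null gave the controls. The low fat (LF) diet was fed to females for 34 weeks, and the high fat (HF) diet to both sexes for 34 weeks. The third diet, high in fat, cholesterol and fructose (HFCF), was fed to both sexes for 16 weeks after 18 weeks on the HF diet. Each of the 4 male groups held 6 mice and each of the 6 female groups held 4. The mice were adult, and their strain and exact age are not given in the sources used here.

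Stellate cells lie between the hepatocytes and the sinusoidal endothelium and store vitamin A as retinyl esters in the healthy liver. In chronic injury, including steatohepatitis, they lose these stores, respond to platelet-derived growth factor (PDGF), build contractile filaments and lay down collagen, which lysyl oxidases cross-link. Portal fibroblasts and the smooth muscle of vessels express some of the same genes, so the markers differ in how closely they are tied to stellate cells.

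As a check of the labels, Pparg itself was not lower in any labelled-knockout group: mean levels were 41.2 against 34.3 CPM (read counts scaled to library size) in HF males and 46.0 against 23.7 CPM in HFCF females, labelled knockout first. On HFCF it was called higher in labelled-knockout males (log2 difference 0.81, SE 0.11, edgeR adjusted p = 0.000805) and females (0.97, SE 0.13, adjusted p = 0.0422). These counts cover the whole gene, so they do not show whether the floxed exons were lost. The term labelled knockout is therefore kept throughout. Depth ran from 15338239 to 22072884 reads on genes per library. Hepatocyte markers (7 of 7 found) summed to between 42427 and 126920.0 CPM in a library. Markers of cells that a liver sample should not hold were close to 0: 7 of 8 skeletal muscle markers found, summing to at most 4.32 CPM, and 3 of 5 pancreas markers, at most 1.22 CPM. Adipocyte markers (4 of 5 found) summed to at most 19.9 CPM, in an HFCF control male. No p-value here measures more than the spread between these mice, since each library is labelled as 1 mouse.

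Promoter sequences are shown for 1 filament gene of each kind and for both genes typical of resting stellate cells, since these behaved differently on the diets. RefSeq entries (GRCm38.p6) matched 5 of the 10 genes: Acta2, Des, Pdgfra, Lrat and Reln. Each line gives the 250 bases before the transcription start, 5′ to 3′ on the gene's strand. The windows are chr19:34255374-34255623 (minus strand) for Acta2, chr1:75360042-75360291 (plus strand) for Des, chr3:82903975-82904224 (minus strand) for Lrat and chr5:22344706-22344955 (minus strand) for Reln. Capitals mark CArG-like boxes, the kind of element bound by serum response factor at muscle genes, and GGGCGG on either strand, the core of a GC box.
Acta2: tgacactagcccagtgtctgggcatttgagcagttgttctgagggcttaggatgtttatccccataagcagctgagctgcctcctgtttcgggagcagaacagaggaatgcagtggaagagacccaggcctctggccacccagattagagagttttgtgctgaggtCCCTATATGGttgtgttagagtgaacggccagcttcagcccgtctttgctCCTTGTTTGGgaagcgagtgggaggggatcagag
Des: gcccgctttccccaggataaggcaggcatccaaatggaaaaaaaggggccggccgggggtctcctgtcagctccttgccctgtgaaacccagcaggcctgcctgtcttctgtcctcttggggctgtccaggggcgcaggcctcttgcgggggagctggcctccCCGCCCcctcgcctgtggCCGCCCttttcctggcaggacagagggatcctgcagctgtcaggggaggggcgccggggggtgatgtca
Lrat: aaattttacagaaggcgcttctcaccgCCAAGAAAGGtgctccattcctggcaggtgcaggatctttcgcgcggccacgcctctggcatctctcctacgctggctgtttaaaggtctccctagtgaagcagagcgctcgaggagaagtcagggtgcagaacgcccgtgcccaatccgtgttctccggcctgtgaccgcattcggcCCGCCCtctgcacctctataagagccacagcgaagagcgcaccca
Reln: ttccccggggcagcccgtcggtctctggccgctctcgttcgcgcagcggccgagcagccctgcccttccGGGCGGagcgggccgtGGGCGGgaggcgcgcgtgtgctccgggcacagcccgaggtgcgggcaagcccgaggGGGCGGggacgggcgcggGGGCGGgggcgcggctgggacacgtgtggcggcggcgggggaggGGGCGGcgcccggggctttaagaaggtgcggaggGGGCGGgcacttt
A CArG-like box was searched as CC, then 6 bases of which at most 1 is not A or T, then GG, which reads the same on both strands; this form was chosen after the sequences were seen. Acta2 held 2 such boxes, starting at positions -84 and -34 before the start, and no GGGCGG. Lrat held 1 CArG-like box, at position -223, and 1 GGGCGG. Reln held 6 GGGCGG and no CArG-like box in a window of 80.0% G and C, and Des held 2 GGGCGG and no CArG-like box. Of 32851 windows of this length in the table, 8.59% held a CArG-like box and 32.7% held GGGCGG. The matches describe these letters only.

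Per length of gene, Dcn was the most abundant of the markers and Lox the least in all 10 groups. Dcn encodes decorin and Lum lumican, small proteoglycans that bind collagen fibrils. In FPKM, the authors' level corrected for depth and gene length, mean Dcn ranged from 27.2 in HF labelled-knockout females to 51.7 in HFCF labelled-knockout females. Mean Lox, which encodes lysyl oxidase, ranged from 0.0522 FPKM in LF labelled-knockout females to 0.958 FPKM in HFCF control males. The gene in second place changed with the diet: Lrat in all 6 LF and HF groups, Lum in all 4 HFCF groups. In HF control males Lrat stood at 6.59 FPKM and Lum at 5.51, while in HFCF control males Lum stood at 13.5 FPKM and Lrat at 6.36.

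The genes differed in how far their level moved across the 10 groups. The ratio of the highest to the lowest group mean (in CPM) was 18.0 for Lox, 5.05 for Lum, 4.69 for Loxl1, 4.51 for Acta2 and 3.24 for Pdgfrb. It was 2.50 for Pdgfra, 2.10 for Des, 1.89 for Dcn, 1.85 for Lrat and 1.71 for Reln. The matrix cross-linking genes and Lum thus spanned the widest range, and the genes of the resting cell the narrowest. For Pdgfra, Pdgfrb, Dcn, Lum, Lox and Loxl1 the 4 HFCF groups were the 4 highest, and for Acta2, Des, Lrat and Reln they were not. For every gene, groups next to each other in the order of means overlapped in their libraries, with 1 exception for Lum and 1 for Lox, where the HFCF labelled-knockout males lay wholly above the HF control males that followed them.

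**Figure D1:**
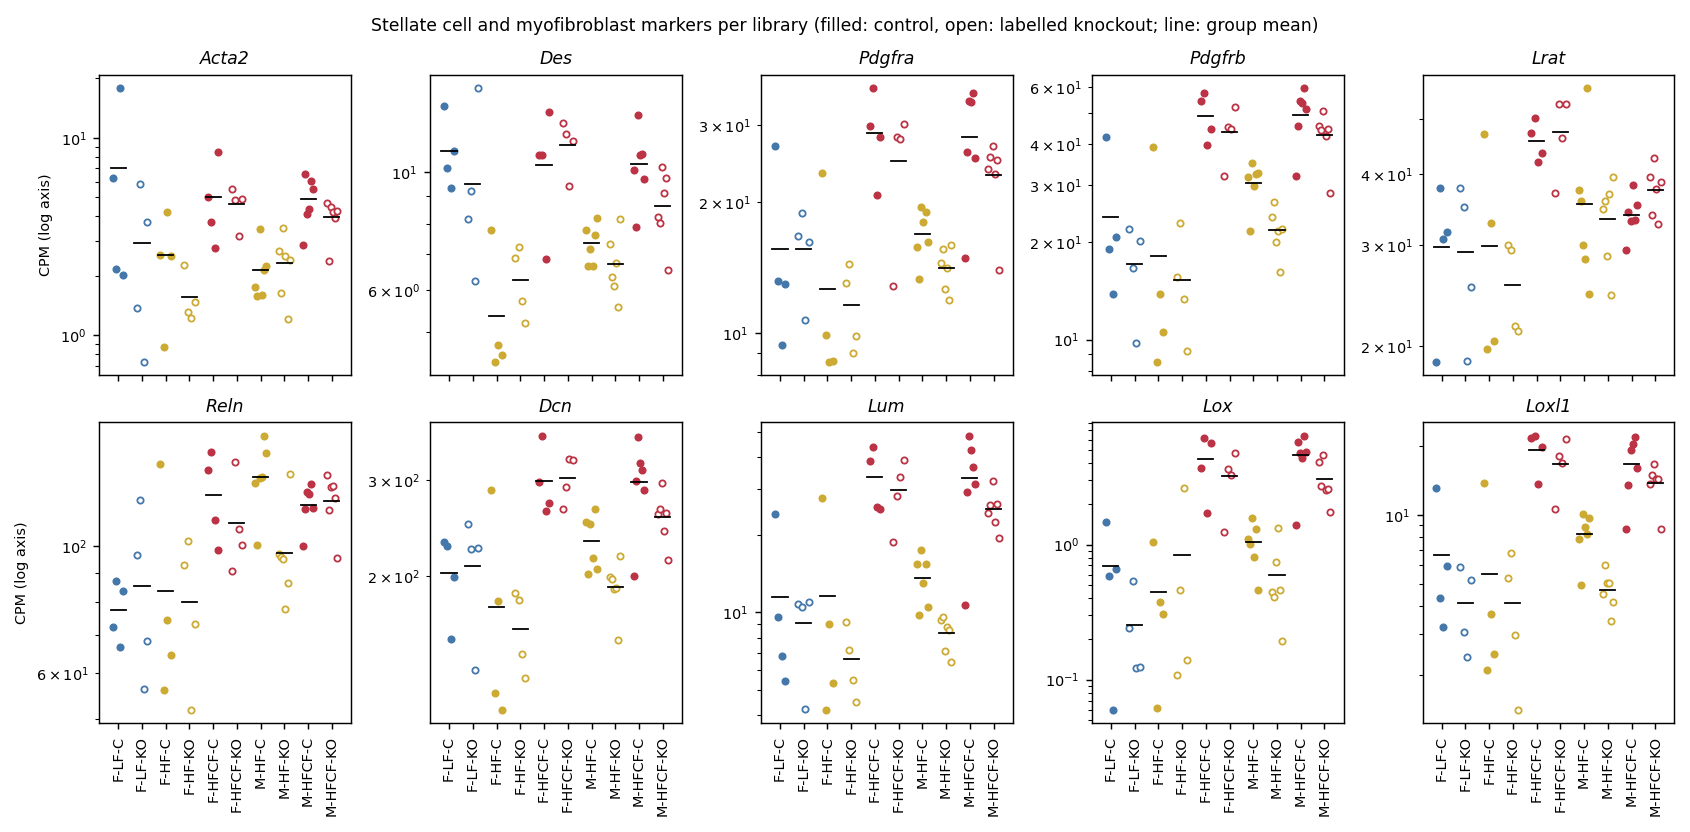
CPM (log axis) of the 10 markers in each of 48 libraries by sex (F, M), diet and virus (C, control; KO, labelled knockout); each point is 1 mouse and each line a group mean. The HFCF groups stand above the HF groups of the same sex for Lum, Lox and Loxl1. Lrat in males and Reln in control males show no such step.

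The first question of the design was what the HFCF diet did relative to the HF diet. By estimate, marker RNA was higher on HFCF in both sexes and with both viruses, with 2 exceptions. These were Lrat and Reln in control males, with log2 differences of -0.04 and -0.13. Since the tissue is bulk liver, more cells of a type and more RNA per cell cannot be told apart. In edgeR's quasi-likelihood test with Benjamini-Hochberg adjustment over all genes, 8 of 10 markers were called higher in control males (adjusted p under 0.05) and 9 of 10 in labelled-knockout males. Genes called higher made up 13% and 21.6% of all genes tested in these comparisons. In females, 5 of 10 were called higher in controls, where 16.9% of all genes were, and 8 of 10 in labelled knockouts, where 8.44% were. No marker was called lower in any of the 4 comparisons, against 9.31%, 20%, 13.8% and 6.01% of all genes in the same order. The median log2 difference of the 10 markers was 0.75 in control males, 0.76 in labelled-knockout males, 1.09 in control females and 1.32 in labelled-knockout females, beside medians over all genes between -0.02 and 0.01.

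Groups that did not overlap at all were fewer. On HFCF, all libraries lay above all HF libraries for 2 markers in control females (Pdgfrb and Lox), where this held for 15.4% of all genes, and for 7 in labelled-knockout females, where it held for 10.2%. It held for 4 markers in labelled-knockout males (Pdgfrb, Lum, Lox and Loxl1; 9.8% of all genes) and for 0 in control males (1.53%). No marker lay wholly lower on HFCF, which held for 13.9%, 9.47%, 9.35% and 3.03% of all genes in the same order. In control males replicate 1 of the HFCF group was the lowest of its group for 9 of the 10 markers, and its cholangiocyte marker sum was also the lowest, 159 CPM against 470.2 to 562 in the other 5.

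**Figure D2:**
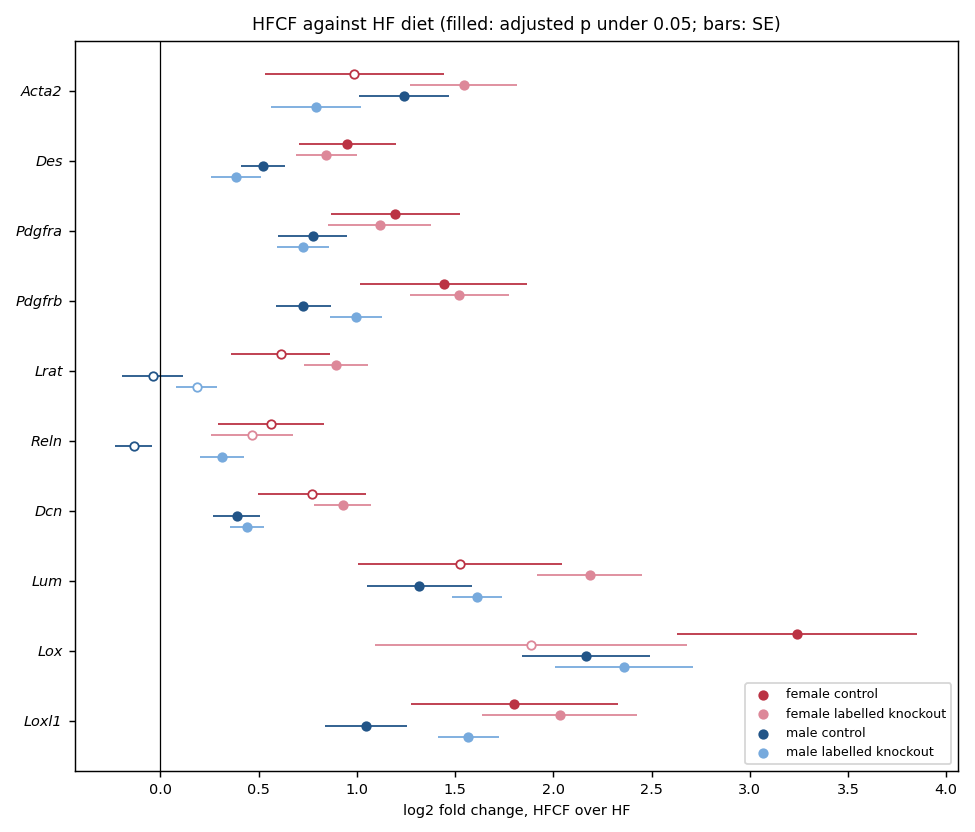
Log2 fold change (HFCF over HF diet) of each marker with its SE, in 4 comparisons by sex and virus; filled points have an adjusted p under 0.05. Lox, Lum and Loxl1 lie farthest to the right, except that Acta2 (1.24) lies beyond Loxl1 (1.05) in control males, and Lrat and Reln in males lie nearest to 0.

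Lox, Lum and Loxl1 had the widest estimates in 3 of the 4 comparisons; in control males Acta2 (1.24) stood above Loxl1 (1.05). Lox (ENSMUSG00000024529, GRCm38 chromosome 18, 52516069 to 52529867, minus strand) encodes the secreted oxidase that starts collagen and elastin cross-links, and Loxl1 (ENSMUSG00000032334, chromosome 9, 58287738 to 58313186, minus strand) a related enzyme that acts on elastin. In control females Lox measured 1.04, 0.0619, 0.374 and 0.306 CPM on HF and 3.70, 6.17, 1.70 and 5.65 CPM on HFCF. In control males it ran from 0.462 to 1.59 CPM (median 1.05) on HF and from 1.41 to 6.36 CPM (median 4.82) on HFCF. The male groups thus overlapped only through HFCF replicate 1, at 1.41 CPM. The log2 difference was 3.24 (SE 0.61, edgeR adjusted p = 0.00767) in control females and 2.17 (SE 0.33, adjusted p = 0.00112) in control males. In labelled-knockout males the median rose from 0.452 CPM (0.195 to 1.33) to 2.64 CPM (1.76 to 4.64), a log2 difference of 2.36 (SE 0.35, edgeR adjusted p = 9.68e-05). Labelled-knockout females had Lox at 0.108, 0.461, 2.65 and 0.141 CPM on HF and 1.25, 3.63, 3.27 and 4.79 CPM on HFCF. Here HF replicate 3 lay within the HFCF range, and the edgeR adjusted p was 0.14; without that library the log2 difference was 3.79 and the adjusted p 0.0051. Lox had few reads, between 1 and 126 per library, which limits its precision.

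Loxl1 in control females measured 13.8, 2.11, 3.67 and 2.45 CPM on HF and 21.7, 22.1, 13.6 and 19.7 CPM on HFCF. HF replicate 1 reached the lowest HFCF library, and the other 3 were well below. In labelled-knockout females the values were 5.27, 6.78, 2.99 and 1.41 CPM on HF and 10.6, 18.1, 16.8 and 21.4 CPM on HFCF, with no overlap. Loxl1 rose by a log2 value of 1.80 (SE 0.53, edgeR adjusted p = 0.03) in control and 2.03 (SE 0.39, adjusted p = 0.00976) in labelled-knockout females. Control males went from a median of 8.52 CPM (4.94 to 10.0) to 17.6 CPM (8.69 to 21.8), and labelled-knockout males from 4.78 CPM (3.44 to 6.01) to 14.3 CPM (8.66 to 16.6). These log2 differences were 1.05 (SE 0.21, edgeR adjusted p = 0.00361) and 1.57 (SE 0.16, adjusted p = 4.27e-06). Of the other lysyl oxidases, Loxl2 also rose in all 4 comparisons, by 0.69 to 2.001, and Loxl3 in both male ones. Loxl4 was called higher in control females only (1.15, SE 0.30, edgeR adjusted p = 0.0208).

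Of the small proteoglycans, Lum moved further than Dcn in all 4 comparisons, and its estimate was above that of Loxl1 in all but control females. The 2 genes are neighbours on chromosome 10 (plus strand): Dcn (ENSMUSG00000019929) at 97479609 to 97518143 and Lum (ENSMUSG00000036446) at 97565128 to 97572703. In control females Lum measured 27.6, 4.21, 9.03 and 5.33 CPM on HF and 38.5, 43.7, 25.6 and 25.1 CPM on HFCF. Labelled-knockout females had 9.20, 7.17, 5.49 and 4.50 CPM on HF and 18.7, 28.1, 33.5 and 38.9 CPM on HFCF. HF control replicate 1 again reached the HFCF range, while the labelled-knockout groups were apart. The log2 differences were 1.52 (SE 0.52, edgeR adjusted p = 0.0503, just short of a call) and 2.18 (SE 0.27, adjusted p = 0.00202). In males Lum rose from a median of 14.2 CPM (9.78 to 17.4) to 33.9 CPM (10.6 to 48.01) in controls and from 8.66 CPM (6.42 to 9.63) to 25.2 CPM (19.4 to 32.2) in labelled knockouts. Those log2 differences were 1.32 (SE 0.27, edgeR adjusted p = 0.00379) and 1.61 (SE 0.13, adjusted p = 7.61e-07).

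Dcn in control females measured 288, 122, 179.9 and 113 CPM on HF and 298, 362, 264 and 272 CPM on HFCF. In females with the Cre virus it measured 186, 181, 144 and 129.8 CPM on HF and 265, 291, 329 and 328 CPM on HFCF. It rose in the labelled knockouts by a log2 value of 0.93 (SE 0.15, edgeR adjusted p = 0.00467), with no overlap, and was 0.77 higher (SE 0.27, adjusted p = 0.0575) in controls. Male medians went from 233 CPM (202 to 266) to 306 CPM (200.2 to 361) in controls and from 194 CPM (153 to 218) to 260.4 CPM (214 to 297) in labelled knockouts. The differences of 0.39 (SE 0.12, edgeR adjusted p = 0.0337) and 0.44 (SE 0.09, adjusted p = 0.00102) were called in both and were smaller than those of Lum. When each library was left out in turn, the call in control males held in 4 of 12 fits, with adjusted p from 0.00031 to 0.0809. It was lost without HF replicate 2, 4 or 6 and without any 1 of HFCF replicates 2 to 6.

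The PDGF receptors rose together. Pdgfrb (ENSMUSG00000024620, chromosome 18, 61045150 to 61085061, plus strand) encodes the receptor chain through which PDGF drives division of stellate cells, and Pdgfra (ENSMUSG00000029231, chromosome 5, 75152292 to 75198215, plus strand) the chain typical of fibroblasts. In control females Pdgfrb measured 39.3, 8.54, 13.8 and 10.5 CPM on HF and 54.4, 57.5, 39.7 and 44.8 CPM on HFCF. Labelled-knockout females had 15.7, 22.8, 13.4 and 9.21 CPM on HF and 32.1, 45.2, 44.8 and 52.2 CPM on HFCF. Neither pair of groups overlapped, though HF control replicate 1, at 39.3 CPM, came close to the HFCF range. The log2 differences were 1.44 (SE 0.42, edgeR adjusted p = 0.0306) and 1.52 (SE 0.25, adjusted p = 0.00548). Male medians went from 32.02 CPM (21.7 to 35.0) to 52.5 CPM (31.9 to 59.6) in controls and from 21.8 CPM (16.2 to 26.6) to 44.5 CPM (28.3 to 50.9) in labelled knockouts. Pdgfrb thus rose by 0.73 (SE 0.14, edgeR adjusted p = 0.00285) and 0.995 (SE 0.13, adjusted p = 3.56e-05) on the log2 scale.

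Pdgfra in control females measured 23.4, 9.91, 8.59 and 8.64 CPM on HF and 30.0, 36.5, 20.8 and 28.3 CPM on HFCF. In labelled-knockout females it measured 13.02, 14.4, 9.01 and 9.84 CPM on HF and 12.8, 28.2, 28.0 and 30.2 CPM on HFCF. In each pair a single library closed the gap, HF control replicate 1 and HFCF labelled-knockout replicate 1. The log2 differences were 1.20 (SE 0.33, edgeR adjusted p = 0.0235) and 1.12 (SE 0.26, adjusted p = 0.0216). The latter call was lost without HF replicate 4 or HFCF replicate 2, 3 or 4, at adjusted p up to 0.0687. In males the median rose from 17.1 CPM (13.3 to 19.4) to 29.9 CPM (14.9 to 35.6) in controls, a log2 difference of 0.78 (SE 0.18, edgeR adjusted p = 0.00676). In labelled knockouts it rose from 14.3 CPM (11.9 to 15.9) to 24.4 CPM (13.9 to 27.0), or 0.73 (SE 0.13, adjusted p = 0.000547). All 4 PDGF ligand genes, Pdgfa, Pdgfb, Pdgfc and Pdgfd, were called higher on HFCF in each of the 4 comparisons, with median log2 differences of 0.89 in control males, 0.97 in labelled-knockout males, 1.56 in control females and 1.44 in labelled-knockout females.

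The filament genes differed from each other. Acta2 (ENSMUSG00000035783, chromosome 19, 34241090 to 34255336, minus strand) encodes α-smooth muscle actin, the usual sign of a myofibroblast, and Des (ENSMUSG00000026208, chromosome 1, 75360329 to 75368579, plus strand) encodes desmin, an intermediate filament present in resting rodent stellate cells too. In control females Acta2 measured 2.54, 0.867, 4.23 and 2.51 CPM on HF and 5.03, 3.74, 2.78 and 8.48 CPM on HFCF, and the groups overlapped. In labelled-knockout females it measured 2.26, 1.32, 1.22 and 1.48 CPM on HF and 5.51, 4.82, 3.17 and 4.89 CPM on HFCF, with none. The log2 differences were 0.99 (SE 0.46, edgeR adjusted p = 0.124) and 1.55 (SE 0.27, adjusted p = 0.0069). In males the median rose from 1.94 CPM (1.58 to 3.47) to 4.94 CPM (2.88 to 6.58) in controls and from 2.46 CPM (1.20 to 3.49) to 4.22 CPM (2.37 to 4.67) in labelled knockouts. Acta2 rose by 1.24 (SE 0.23, edgeR adjusted p = 0.0026) in the former and 0.79 (SE 0.23, adjusted p = 0.0116) in the latter. The smooth muscle markers Myh11, Cnn1, Actg2 and Lmod1, all found, summed to 1.43 to 4.12 CPM in the males, with similar ranges on both diets; their part in the Acta2 result was not tested.

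Des in control females measured 7.79, 4.40, 4.73 and 4.53 CPM on HF and 10.8, 10.8, 6.85 and 12.96 CPM on HFCF. The labelled knockouts had 6.88, 7.24, 5.73 and 5.202 CPM on HF and 12.4, 11.8, 9.40 and 11.4 CPM on HFCF. Only the labelled-knockout groups were apart. The log2 differences were 0.95 (SE 0.25, edgeR adjusted p = 0.0195) and 0.85 (SE 0.16, adjusted p = 0.00833). Male medians went from 7.39 CPM (6.66 to 8.19) to 10.4 CPM (7.88 to 12.8) in controls and from 6.55 CPM (5.56 to 8.18) to 8.69 CPM (6.54 to 10.2) in labelled knockouts. The differences were 0.52 (SE 0.11, edgeR adjusted p = 0.00489) and 0.39 (SE 0.13, adjusted p = 0.022). The last call was lost without HF replicate 5 or HFCF replicate 3 or 5, at adjusted p up to 0.0581.

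Lrat and Reln had the smallest estimates in 3 of the 4 comparisons; in labelled-knockout females Des (0.85) lay below Lrat (0.90). Lrat (ENSMUSG00000028003, chromosome 3, 82892579 to 82903973, minus strand) encodes the acyltransferase that makes retinyl esters, and Reln (ENSMUSG00000042453, chromosome 5, 21884454 to 22344702, minus strand) encodes reelin, a secreted glycoprotein that stellate cells make in the liver. In males Lrat had medians of 32.9 CPM (24.7 to 56.5) on HF and 33.7 CPM (29.5 to 38.2) on HFCF in controls, a log2 difference of -0.04 (SE 0.16). In labelled-knockout males it had medians of 35.3 CPM (24.6 to 39.6) and 38.2 CPM (32.8 to 42.6), a difference of 0.18 (SE 0.10). Neither passed the test, at edgeR adjusted p of 0.892 and 0.169. In control females Lrat measured 46.9, 19.8, 32.8 and 20.4 CPM on HF and 47.2, 50.1, 42.0 and 43.5 CPM on HFCF. In labelled-knockout females it measured 30.1, 29.4, 21.7 and 21.2 CPM on HF and 37.1, 52.9, 46.2 and 53.0 CPM on HFCF, a rise without overlap. The log2 differences in females were 0.61 (SE 0.25, edgeR adjusted p = 0.0884) and 0.90 (SE 0.16, adjusted p = 0.00773).

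Reln in control males had a median of 132 CPM (101 to 156) on HF and 119.9 CPM (100.3 to 129) on HFCF, a log2 difference of -0.13 (SE 0.09, edgeR adjusted p = 0.324). In labelled-knockout males it went from 95.4 CPM (77.8 to 134) to 124 CPM (95.3 to 133), and the difference of 0.32 (SE 0.11, edgeR adjusted p = 0.0334) was called. That call held in 3 of 12 fits that left out 1 library. It was lost without HF replicate 1, 2, 3, 4 or 5 and without HFCF replicate 1, 3, 4 or 5, at adjusted p up to 0.0761. In control females Reln measured 139, 56.0, 74.4 and 64.5 CPM on HF and 136, 146, 111 and 98.6 CPM on HFCF. In labelled-knockout females it measured 92.7, 102, 51.8 and 73.1 CPM on HF and 90.4, 140.4, 107 and 100.4 CPM on HFCF. The female differences of 0.56 (SE 0.27) and 0.46 (SE 0.21) did not pass, at edgeR adjusted p of 0.135 and 0.164. Reln overlaps Gm10475 on the other strand and 3 processed pseudogenes, and libraries were not strand specific; none of these had over 14 reads in a library.

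In control females the count of called markers ran from 1 to 9 when 1 library was left out. This was the widest range of the 4 comparisons of HFCF with HF. HF control replicate 1 was the highest of its group for 9 of the 10 markers, and its cholangiocyte markers summed to 277 CPM against 43.3 to 72.7 CPM in the other 3. Without it, 9 of 10 markers were called higher on HFCF by edgeR. Without any 1 of HF replicates 2 to 4 or HFCF replicates 1, 2 and 5, Lox alone was called, and the other 4 had adjusted p up to 0.0837. The 6 markers with an adjusted p under 0.05 in the authors' deposited table for this comparison compare with 5 here.

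Other groups of genes in the same biology were counted in the same fits. Of 18 further myofibroblast matrix genes, 12 of 14 tested rose in control males, 14 of 14 in labelled-knockout males, 10 of 15 in control females and 12 of 14 in labelled-knockout females, and none fell. Their median log2 differences were 1.05, 1.48, 1.76 and 1.84. Timp1, an inhibitor of matrix proteases, rose by 2.66 in labelled-knockout males and 3.90 in labelled-knockout females, and Mfap4, a microfibril protein, by 1.53 in control males. Of 20 further stellate cell and pericyte genes the picture was mixed: 4 rose and 4 fell in control males, 9 rose and 3 fell in labelled-knockout males, 7 rose and 2 fell in control females, and 8 rose and 1 fell in labelled-knockout females, all 20 being tested each time. Over all genes, 13% rose and 9.31% fell in control males, 21.6% and 20% in labelled-knockout males, 16.9% and 13.8% in control females, and 8.44% and 6.01% in labelled-knockout females. Adamtsl2, a secreted glycoprotein of the matrix, rose in all 4 comparisons by 1.08 to 1.96, while Cxcl12, a chemokine, fell by 0.43 in control females and Angptl6 by 0.60 in control males. Of 9 further small leucine-rich proteoglycans, 4 of 6 tested rose in control males, led by Fmod (fibromodulin) at 1.22. Of the genes that handle retinoids, 5 of 8 fell in labelled-knockout males, with Cyp26b1, which degrades retinoic acid, at -1.29 and Cyp26a1 at -1.12. The 5 include Ttr (-0.76), which is also counted among the hepatocyte markers.

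Markers of other cell types moved with the diet as well. Cholangiocyte markers (6 of 6 found) summed to 107 to 218 CPM in HF and 159 to 562 CPM in HFCF control males, and to 43.3 to 277 CPM and 306 to 550.2 CPM in control females. Spp1 made up most of these sums, and all 6 genes were called higher on HFCF by edgeR in control males and in control females. Macrophage markers (8 of 8) summed to 256 to 462 CPM and 446 to 888 CPM in control males, and to 313 to 545 CPM and 797 to 989 CPM in control females. Not all of the 8 rose on HFCF: Timd4 and Marco had negative estimates in all 4 comparisons, and Clec4f was called in none. Timd4 (-1.18, edgeR adjusted p = 0.0452) and Marco (-1.96, adjusted p = 0.0271) were called lower in labelled-knockout males. Cd68 and Lyz2 were called higher in all 4 comparisons. Hepatocyte markers summed to less on HFCF, at 42427 to 68182 CPM against 65763 to 91254 CPM on HF in control males, where the ranges overlapped. There edgeR called Ttr (-0.42), Alb (-0.66) and Serpina1a (-0.38) lower. Apoa1, Apoa2, Cps1 and Fgb had negative estimates but were not called there, nor were Cps1 and Fgb in control females. The corresponding hepatocyte sums were 57531 to 68941 CPM against 95905 to 110526 CPM in labelled-knockout males and 58229.8 to 72439 CPM against 94682 to 112943 CPM in control females. The ranges also overlapped in labelled-knockout females, at 65972 to 120507 CPM against 105229 to 126920 CPM. There no hepatocyte marker was called by edgeR, with the lowest adjusted p of 0.0678 for Serpina1a. Of 7 sinusoidal endothelial markers, all found, 5 were called higher on HFCF in control females (Stab2, Lyve1, Kdr, Oit3 and Pecam1), 2 in labelled-knockout females, 1 in labelled-knockout males and 0 in control males, where 0 also had an unadjusted p under 0.05 by edgeR. Their sums went from 222 to 309 CPM on HF to 305 to 353 CPM on HFCF in control females, from 168 to 293 CPM to 295 to 363 CPM in labelled-knockout females, from 196 to 334 CPM to 262 to 338 CPM in labelled-knockout males, and from 249 to 382 CPM to 246 to 353 CPM in control males. In HFCF labelled-knockout females replicate 1 stood apart: its hepatocyte markers summed to 120507 CPM against 65972 to 83517 CPM in the other 3, its cholangiocyte markers to 246 CPM against 464 to 557 CPM, and it was the lowest of its group for 8 of the 10 stellate cell markers. Without it, 8 markers were still called higher on HFCF than on HF by edgeR, and 7 in place of 5 on HFCF than on LF. No defining marker of these 4 lists was at 0 throughout a group. The part of a shift in cell makeup in the marker differences was not tested.

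The LF diet gave a second reference in females. Against LF, 8 of 10 markers were called higher on HFCF in controls, where 18.4% of all genes were, and 5 of 10 in labelled knockouts, where 8.26% were. No overlap was seen for 6 markers in controls (18.1% of all genes) and 5 in labelled knockouts (9.81%). None was called lower (16.8% and 3.74% of all genes) or lay wholly lower (15.8% and 7.4%). Lum measured 24.0, 9.61, 6.77 and 5.42 CPM in LF controls and 10.7, 10.5, 4.22 and 10.9 CPM in LF labelled knockouts, below all HFCF libraries of the same virus. It rose by 1.52 (SE 0.42, edgeR adjusted p = 0.0182) and 1.76 (SE 0.30, adjusted p = 0.00493) on the log2 scale. Lox measured 1.47, 0.589, 0.0599 and 0.658 CPM in LF controls and 0.24, 0.534, 0.122 and 0.123 CPM in LF labelled knockouts. It rose by 2.602 (SE 0.60, edgeR adjusted p = 0.00828) and 3.71 (SE 0.54, adjusted p = 0.00285), the widest steps of the list. Loxl1 measured 13.1, 4.32, 3.23 and 5.97 CPM in LF controls and 5.88, 3.07, 2.39 and 5.17 CPM in LF labelled knockouts, and rose by 1.52 (SE 0.37, edgeR adjusted p = 0.0108) and 2.06 (SE 0.30, adjusted p = 0.00276).

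The genes of the resting cell were also higher on HFCF than on LF. Lrat measured 18.8, 37.9, 30.8 and 31.6 CPM in LF controls, all below the HFCF controls, and rose by 0.61 (SE 0.17, edgeR adjusted p = 0.0186). In LF labelled knockouts it measured 37.9, 35.0, 18.8 and 25.3 CPM and rose by 0.73 (SE 0.21, edgeR adjusted p = 0.0418). The control call was lost without HFCF replicate 2 (adjusted p = 0.052), and the other without LF replicate 2, 3 or 4 or HFCF replicate 2, 3 or 4, at adjusted p up to 0.121. Reln measured 72.4, 86.9, 66.6 and 83.4 CPM in LF controls and rose by 0.66 (SE 0.13, edgeR adjusted p = 0.00483) with no overlap. In LF labelled knockouts Reln measured 96.6, 120.4, 56.2 and 68.4 CPM, and its difference of 0.40 (SE 0.23, adjusted p = 0.288) did not pass. Dcn measured 231, 227, 153 and 199 CPM in LF controls, rising by 0.55 (SE 0.15, edgeR adjusted p = 0.0185), and 249.7, 225, 134 and 225 CPM in LF labelled knockouts, where 0.58 (SE 0.19, adjusted p = 0.066) did not pass although the groups did not overlap.

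The receptors and filament genes showed the spread among LF mice. Pdgfrb measured 42.3, 19.0, 13.8 and 20.8 CPM in LF controls and 21.96, 16.6, 9.73 and 20.1 CPM in LF labelled knockouts, and rose on HFCF by 1.02 (SE 0.30, edgeR adjusted p = 0.023) and 1.39 (SE 0.23, adjusted p = 0.00488). The control call was lost without LF replicate 2 or 4 or HFCF replicate 1 or 2, at adjusted p up to 0.062. Pdgfra measured 26.9, 13.1, 9.40 and 12.9 CPM in LF controls and 16.7, 18.9, 10.7 and 16.2 CPM in LF labelled knockouts. Its rise in controls of 0.87 (SE 0.30, edgeR adjusted p = 0.0423) was lost without any 1 of LF replicates 2 to 4 or HFCF replicates 1, 2 and 5, at adjusted p up to 0.103. In labelled knockouts 0.72 (SE 0.26, adjusted p = 0.0973) did not pass; without HFCF replicate 1 it was 0.90, with an adjusted p of 0.00477. LF control replicate 1 was the highest of its group for 7 markers, and LF labelled-knockout replicate 3 the lowest of its group for all 10.

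Acta2 measured 6.24, 2.16, 17.9 and 2.03 CPM in LF controls and 1.38, 5.81, 0.734 and 3.75 CPM in LF labelled knockouts. These spans took in all HFCF values of the same virus. Its differences on HFCF, -0.50 (SE 0.64) in controls and 0.69 (SE 0.48) in labelled knockouts, did not pass, at edgeR adjusted p of 0.564 and 0.395. The LF control with 17.9 CPM, replicate 3, was the lowest of its group for 7 other markers, and its smooth muscle markers summed to 26.7 CPM, against 2.30 to 8.42 CPM in the other 3. The part of vessel smooth muscle in that value was not tested. Des measured 13.3, 10.2, 9.34 and 11.0 CPM in LF controls and 8.16, 9.22, 6.24 and 14.4 CPM in LF labelled knockouts. Against these, HFCF gave differences of -0.09 (SE 0.19) and 0.28 (SE 0.23), neither called, at edgeR adjusted p of 0.733 and 0.475.

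Des was the 1 marker for which LF stood well apart from HF. HF controls, at 4.40 to 7.79 CPM, lay wholly below LF controls, at 9.34 to 13.3 CPM, a log2 difference of -1.01 (SE 0.21). The edgeR adjusted p was 0.0656, so it was not called, and the authors' deposited table gives Des as its only marker under 0.05 in this comparison. Without HF replicate 1 the difference was -1.25 and the edgeR adjusted p 0.018. Between HF and LF, 0 of 9 markers tested were called by edgeR in controls, where 0.696% of all genes were, and 0 of 9 in labelled knockouts, where 0.155% were. Des alone had an unadjusted p under 0.05 in each, and DESeq2 called 1 marker (Des) and 0. Groups without overlap were lower on HF for 1 marker in controls (4.76% of all genes) and 0 in labelled knockouts (4.25%), and none was higher (5.26% and 4.21%). Lox did not pass the filter on low counts in these comparisons. Acta2 gave the widest estimates, -1.46 (SE 0.70) and -0.87 (SE 0.55), and the other 7 tested markers lay between -0.45 and 0.13.

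The second question was what the labelled knockout changed. In HF males, 5 of 10 markers were lower with AAV8-TBG-Cre: Loxl1, Lum, Pdgfrb, Reln and Dcn. Genes called lower made up 9.88% of all genes tested there, and no marker was called higher (8.57% of all genes). The median log2 difference of the markers was -0.37, beside 0.00 over all genes. Only Lum separated the groups completely, as 4.09% of all genes did in that direction and 3.86% in the other.

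**Figure D3:**
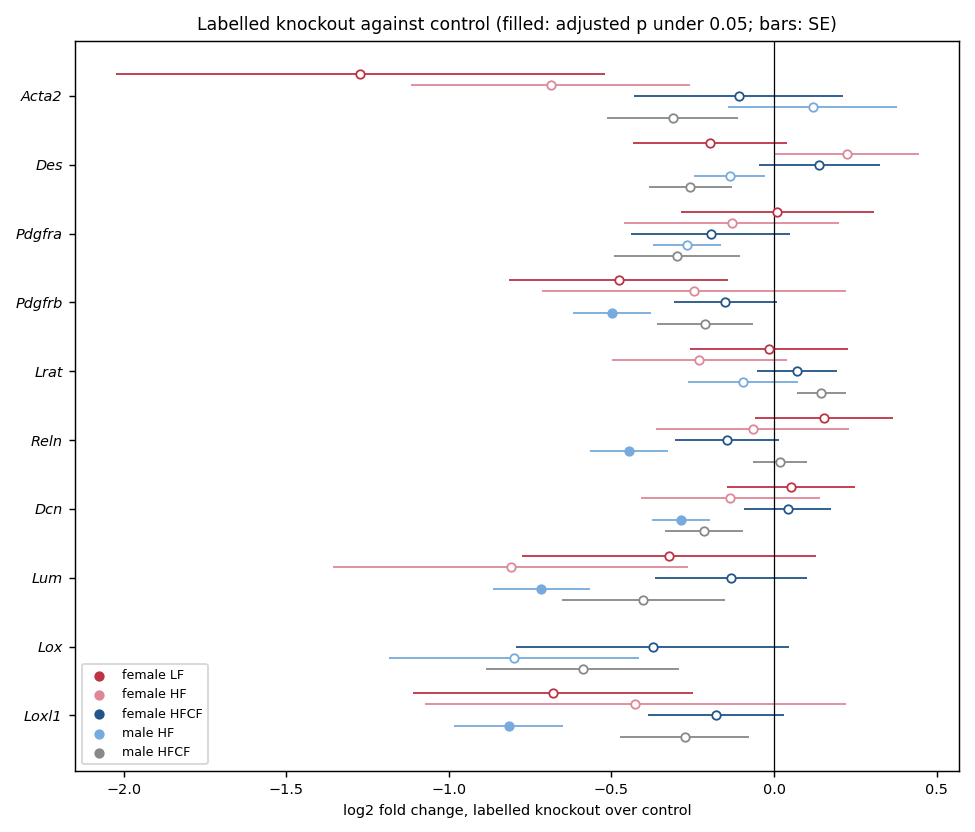
Log2 fold change (labelled knockout over control) of each marker with its SE, on each diet in each sex; filled points have an adjusted p under 0.05. Filled points occur only in HF males, for Pdgfrb, Reln, Dcn, Lum and Loxl1; the female bars are the longest.

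Loxl1 was lower by the widest margin among the called genes. It had a median of 8.52 CPM (4.94 to 10.0) in HF control males and 4.78 CPM (3.44 to 6.01) in labelled knockouts, and fell by 0.82 on the log2 scale (SE 0.17, edgeR adjusted p = 0.00326). The overlap came from control replicate 2, at 4.94 CPM. Lum went from 14.2 CPM (9.78 to 17.4) to 8.66 CPM (6.42 to 9.63) and fell by 0.72 (SE 0.15, edgeR adjusted p = 0.00339). Pdgfrb went from 32.02 CPM (21.7 to 35.0) to 21.8 CPM (16.2 to 26.6) and fell by 0.50 (SE 0.12, edgeR adjusted p = 0.00918). Control replicate 2 was the lowest of its group for 7 of the 10 markers. These 3 calls, and that of Reln, held in all 12 fits that left out 1 library.

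Reln went from 132 CPM (101 to 156) to 95.4 CPM (77.8 to 134) and fell by 0.45 (SE 0.12, edgeR adjusted p = 0.016). Labelled-knockout replicate 6, at 134 CPM, stood above the other 5, which lay between 77.8 and 96.9 CPM. That library also had the lowest Pparg of its group, 18.0 CPM against 38.5 to 61.9 CPM. Dcn went from 233 CPM (202 to 266) to 194 CPM (153 to 218) and fell by 0.29 (SE 0.09, edgeR adjusted p = 0.0355). This call held in 5 of 12 fits without 1 library and was lost without control replicate 1, 3 or 5 or labelled-knockout replicate 1, 3, 4 or 5, at adjusted p up to 0.0879.

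The other 5 markers did not pass in HF males. Pdgfra had medians of 17.1 CPM in controls and 14.3 CPM in labelled knockouts, a difference of -0.27 (SE 0.10, edgeR adjusted p = 0.0876), which was called without control replicate 2 (-0.33, adjusted p = 0.0255). Lox had medians of 1.05 and 0.452 CPM and a difference of -0.80 (SE 0.38, edgeR adjusted p = 0.165), which was called without labelled-knockout replicate 4 (-1.19, adjusted p = 0.03). Both estimates pointed down, as those of Des (-0.14, SE 0.11) and Lrat (-0.10, SE 0.17) did. Acta2 was the 1 marker with a positive estimate, 0.12 (SE 0.26), and medians of 1.94 and 2.46 CPM.

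The gene lists around the markers differed in these livers. Of 14 myofibroblast matrix genes tested, 12 fell and 0 rose, with a median of -0.63; Timp1 fell by 2.13 and Col1a1, a chain of type I collagen, by 1.23, while Islr and Tgfb1 fell least, by 0.43 and 0.40. Of 20 stellate cell and pericyte genes, 3 fell (Mcam by 0.66, Hgf by 0.47 and Cygb), and 1, Cxcl12, rose by 0.43, beside 9.88% of all genes called lower and 8.57% called higher. Of 8 retinoid genes, 4 rose, led by Cyp26b1 (1.48) and Cyp26a1 (1.12). The 4 include Ttr (0.37), which is also counted among the hepatocyte markers. Of 6 contractile genes, 3 fell: Tpm2 by 0.91, Tpm1 by 0.62 and Smtn. Loxl2 was 1 of 3 other lysyl oxidases that fell, by 0.69, and Vldlr, a receptor for reelin, fell by 0.73. None of the 4 PDGF ligand genes passed, although 2 had an unadjusted p under 0.05.

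Other cell markers differed between these groups of HF males. Hepatocyte markers summed to 65763 to 91254 CPM in controls and 95905 to 110526 CPM in labelled knockouts, without overlap. Cholangiocyte markers summed to 107 to 218 CPM and 59.3 to 123 CPM, sinusoidal endothelial markers to 249 to 382 CPM and 196 to 334 CPM, and macrophage markers to 256 to 462 CPM and 358 to 537 CPM. Most of the cholangiocyte sum came from Spp1, with a median of 143 CPM over the 48 libraries against 10.2 CPM for Sox9, the next highest. Spp1 alone of that list was called lower (-0.88, SE 0.23, edgeR adjusted p = 0.0153). Krt19 (-0.05), Krt7 (-0.06), Epcam (-0.38) and Sox9 (-0.17) were not called, and Cftr was not tested. Of the macrophage list, Clec4f alone was called (0.56, SE 0.18, edgeR adjusted p = 0.0412). Vsig4, Cd5l, Timd4 and Marco also had positive estimates, and Adgre1, Cd68 and Lyz2 negative ones. Of the endothelial list, Lyve1 alone was called (-0.69, SE 0.21, edgeR adjusted p = 0.0304). Blood markers (4 of 4 found) summed to 159 to 234 CPM and 158 to 757 CPM. None of the markers in these 5 lists was at 0 throughout a group. Adipocyte markers (4 of 5 found) were low and also did not overlap, summing to 1.64 to 8.15 CPM in controls and 0 to 0.0683 CPM in labelled knockouts, with 2 of the 4 at 0 in all controls and 3 in all labelled knockouts. Nearly all of these reads came from Cfd, while Adipoq, Retn and Plin1 reached at most 0.131 CPM in any of the 48 libraries. The part of these cell types in the lower stellate cell markers was not tested.

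In HFCF males 0 of 10 markers were called by edgeR, where 0.933% of all genes were called higher and 1.27% lower, 0 had an unadjusted p under 0.05 and DESeq2 also called 0. No marker separated the groups (0.865% of all genes higher, 1.36% lower). The estimates ran from -0.59 for Lox (SE 0.30) to 0.14 for Lrat (SE 0.08), with a median of -0.27. Without HFCF control replicate 1, the library lowest for 9 markers, 3 were called lower: Dcn (-0.31, edgeR adjusted p = 0.0318), Lum (-0.58, adjusted p = 0.018) and Lox (-0.77, adjusted p = 0.0381). Labelled-knockout replicate 6 was the lowest of its own group for 8 markers. Of the 14 myofibroblast matrix genes tested here by edgeR, 0 passed and 1 had an unadjusted p under 0.05, with a median of -0.28, and Tpm2 fell by 1.15 among the contractile genes.

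The drop in HF males was not shown to differ from that in HFCF males. In the test of the labelled knockout by diet interaction in males, 0 of 10 markers were called by edgeR or DESeq2, where edgeR called 1.56% of all genes, and 1 had an unadjusted p under 0.05. That marker was Reln, whose effect was 0.45 higher on HFCF (SE 0.16, edgeR adjusted p = 0.124). Without HF labelled-knockout replicate 6 the value was 0.56 and the adjusted p 0.0297, the 1 call among 24 such fits. Loxl1 had the widest estimate, 0.52 (SE 0.28, edgeR adjusted p = 0.349).

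In females 0 markers were called for the labelled knockout on any diet by edgeR or DESeq2, and 0 had an unadjusted p under 0.05: 0 of 9 tested on LF, 0 of 9 on HF and 0 of 10 on HFCF. The edgeR test called 0% of all genes on LF (355 at an unadjusted p under 0.05, 8 by DESeq2), 0% on HF (1135, and 64 by DESeq2) and 0.0534% on HFCF. No marker separated its groups, where on LF 0.693% of all genes did upward and 0.966% downward, on HF 2.12% and 3.16%, and on HFCF 2.14% and 3.5%. Median log2 differences of the markers were -0.20 on LF, -0.23 on HF and -0.14 on HFCF. Errors were wide: Lum on HF had a difference of -0.81 (SE 0.55), as large as in males, and Acta2 on LF -1.27 (SE 0.75). On HFCF the errors were smaller, with Pdgfrb at -0.15 (SE 0.16), Dcn at 0.04 (SE 0.13) and Lrat at 0.07 (SE 0.12).

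The sexes were also not shown to differ. For the labelled knockout on HF, the interaction with sex was called for 0 of 10 markers by edgeR or DESeq2 (0 at an unadjusted p under 0.05), where edgeR called 0% of all genes (1590 at an unadjusted p under 0.05, 46 by DESeq2). For the labelled knockout by diet interaction in females it was also 0 of 10 by both tools (0 at an unadjusted p under 0.05), and 0% of all genes (667 unadjusted, 0 by DESeq2). For HFCF against HF in controls, the interaction with sex was called for 0 of 10 by both tools, where edgeR called 0.00646% of all genes. The HFCF effect was lower in males for 9 of 10 estimates, with Reln at -0.69 (SE 0.26, edgeR adjusted p = 0.228) and Lrat at -0.65 (SE 0.30, adjusted p = 0.287) the 2 under an unadjusted p of 0.05. Without HF control female replicate 1, 5 markers were called: Loxl1 (-1.76, edgeR adjusted p = 0.00714), Pdgfrb (-1.43, adjusted p = 0.00229), Reln (-1.05, adjusted p = 0.00185), Lrat (-0.94, adjusted p = 0.0276) and Dcn (-0.72, adjusted p = 0.0415). The count thus turned on that 1 mouse.

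A single level per library, the mean of the 10 standardised log2 CPM values, placed the groups side by side. Its group means were 0.963 in HFCF control females, 0.831 in HFCF labelled-knockout females, 0.811 in HFCF control males and 0.545 in HFCF labelled-knockout males. HF males stood at -0.044 (controls) and -0.551 (labelled knockouts), LF females at -0.298 and -0.622, and HF females at -0.956 and -1.06. The controls had the higher mean in all 5 pairs, and male HF controls stood above female HF controls, as a description without a test. HF control female replicate 1 stood far from its 3 group mates, and LF labelled-knockout female replicate 3 far below its own.

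**Figure D4:**
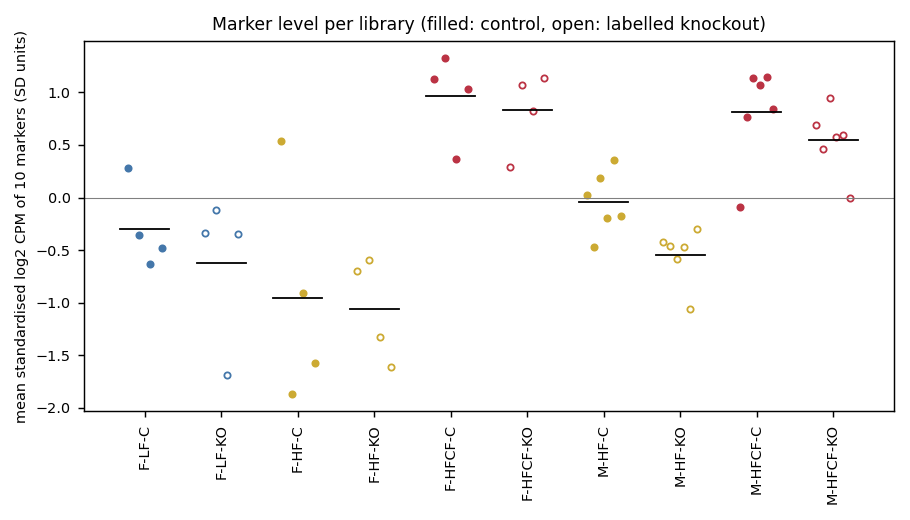
Mean of the standardised log2 CPM of the 10 markers (in SD units over 48 libraries) in each library, with group means as lines. HFCF groups stand highest, from 0.545 to 0.963 in group mean, and 1 HF control female stands among the HFCF libraries of her sex.

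Within groups, the markers rose and fell together from mouse to mouse, with Acta2 apart. After removing group means, Pearson's r of log2 CPM over 48 libraries was 0.962 between Pdgfrb and Loxl1, the highest of all pairs. Each gene's median r with the other 9 was 0.735 for Dcn, 0.662 for Pdgfrb, 0.655 for Pdgfra, 0.639 for Loxl1, 0.587 for Reln and 0.563 for Lum. It was 0.516 for Des, 0.490 for Lox, 0.362 for Lrat and 0.165 for Acta2. Lrat was closest to Dcn (0.678), and Acta2 to Des (0.320). These values describe shared libraries, in which each library's depth and cell makeup enter every gene at once, so no test is attached to them.

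**Figure D5:**
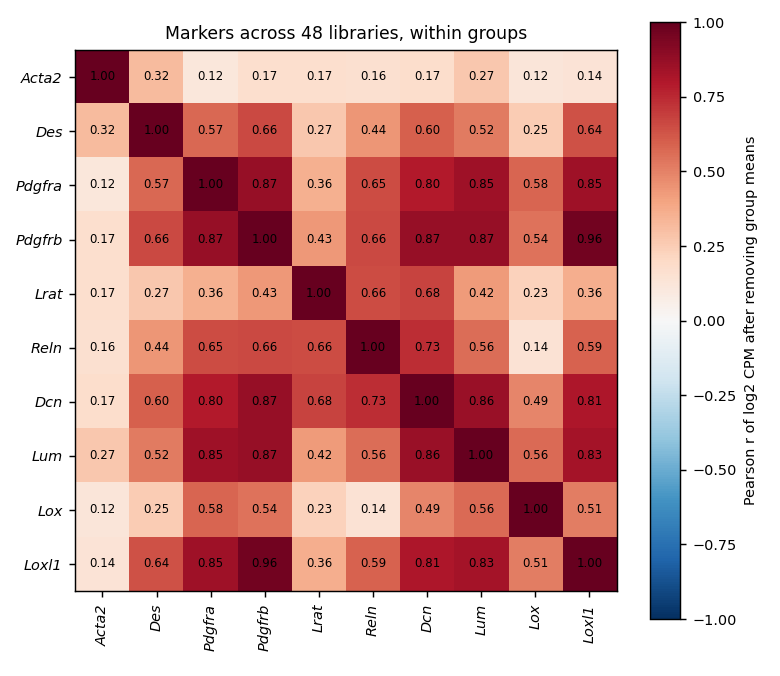
Pearson r of log2 CPM between markers across 48 libraries after group means were removed; colour and number give r. The block of Pdgfra, Pdgfrb, Dcn, Lum and Loxl1 holds values from 0.80 to 0.96, and the Acta2 row stays at 0.32 or below.

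The genes whose levels tracked the mean marker level most closely were ranked over 48 libraries among 13428 genes whose mean reached 1 CPM, leaving out the 10 markers. They were Emilin1 (r = 0.977), Igfbp7 (0.972), Sparc (0.970), Prelp (0.963), Timp2 (0.963), Bgn (0.963), Lamb1 (0.959) and Itga8 (0.958). These r values include the differences between groups, and the libraries share their depth and tissue makeup.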

How the data were processed

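RNA-seq of 48 mouse livers was analysed. Per the labels' protocols, libraries were made from whole-liver RNA and were not strand specific. The submitters' processing notes list STAR 2.6.1, HTSeq 0.6.1, DESeq2 and builds GRCm38 and mm10. The authors' 11 deposited tables, 1 per comparison, give whole-number read counts per gene and library, FPKM per library, gene length in bases, and their own log2 fold changes and p-values. Each library's counts recurred unchanged across tables (0 differences in 1341082 values), so the tables were joined by gene ID into 29221 genes, with a gene absent from a table set to 0. There were 0 columns without a sample. One animal number differs between a label and the series text, in an LF labelled knockout, which leaves its group unchanged.

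CPM values use trimmed-mean-of-M-values (TMM) factors over all 48 libraries (edgeR 4.0.16, R 4.3.3). Each of 13 comparisons was fitted to its 2 groups and each of 4 interactions to its 4 groups, with filterByExpr, the quasi-likelihood F test and Benjamini-Hochberg adjustment over all genes tested. A gene is called at an adjusted p under 0.05. The method was tested on simulated counts. The alternatives were DESeq2 1.42.0 size factors, its Wald test, leaving out each library, dropping the filter, a block for the replicate number, and a joint fit of all groups of a sex. The mean marker level uses log2(CPM + 0.5). The 10 markers and the gene lists (146 of 153 genes found) were chosen with earlier results of these data known. Named beside the markers are at most the 2 highest and 2 lowest called genes of a list in a comparison, and the 8 genes most like the mean marker level. Same-numbered libraries did not deviate together in every pair of any comparison, and the labels do not call them pairs, so the main fits hold no block. With 3 to 6 such pairs per comparison and Pearson's r of their deviations from -0.305 to 0.503, this check cannot exclude pairing. All 96 pairs of replicates differed by more than sampling noise.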

Additional observations from a re-analysis of the deposited data

Results flagged for a closer look

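Libraries that stood apart from their group by Dixon's gap test at the 95% level were found in 12 of 100 combinations of marker and group, where chance gives about 5. In HF control females, replicate 1 was far above the others for Des (7.79 CPM), Pdgfra (23.4 CPM) and Loxl1 (13.8 CPM). In HFCF labelled-knockout males, replicate 6 was far below the others for Pdgfra (13.9 CPM), Pdgfrb (28.3 CPM) and Loxl1 (8.66 CPM), and replicate 2 for Acta2 (2.37 CPM). In HF males, Acta2 was high in control replicate 3 (3.47 CPM) and Reln in labelled-knockout replicate 6 (134 CPM). Lox was high in HF labelled-knockout female replicate 3 (2.65 CPM). Pdgfra was low in HFCF labelled-knockout female replicate 1 (12.8 CPM) and Lum in LF labelled-knockout female replicate 3 (4.22 CPM). The 3 marker values from 1 library are not independent of each other.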

How the results depend on the processing

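Of 285 recomputed counts of called markers, 267 were equal to the main count or within 1.5 times of it. The 267 include counts that were 0 in both fits. Of 2798 recomputed log2 differences 0 called ones changed sign, 89 lost their call, 33 gained one, and 108 uncalled ones changed sign. Between HF and LF control females, 0 markers became 1 (Des) under each of the replicate block, the fit without a filter, the joint fit of the sex's groups and DESeq2's Wald test. Between HFCF and HF control females, 5 became 8 under the Wald test and 0 under the replicate block, which uses 3 shared numbers there and called 0 of all genes. The replicate block gave 4 in place of 5 for the labelled knockout in HF males and 7 in place of 8 and 9 for HFCF in control and labelled-knockout males; the labels do not say that equal numbers are paired mice. Leaving out 1 library gave 4 to 6 markers for the labelled knockout in HF males, 0 to 3 in HFCF males, and 0 on each female diet. For HFCF against HF it gave 7 to 8 in control males, 7 to 9 in labelled-knockout males, 1 to 9 in control females and 7 to 9 in labelled-knockout females. For HFCF against LF it gave 5 to 8 and 4 to 7, and for HF against LF 0 to 1 and 0. Interaction counts were 0 to 1 for knockout by diet in males, 0 to 5 for diet by sex in controls, and 0 for the others.

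Counts over all genes moved more. Under the Wald test they were 712 in place of 324 (labelled knockout, HFCF males), 8 and 64 in place of 0 (LF and HF females), 81 in place of 8 (HFCF females), 648 in place of 99 and 499 in place of 22 (HF against LF, control and labelled knockout). Lox had 1 to 126 reads per library, so depth limits its precision.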
